A study of Mus musculus with 2 samples.

Results

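The regions described here are 622 CTCF peaks of newborn mouse heart that lie away from gene starts and in sequence rich in CpG. They were chosen by sequence and position alone, from the autosomal peaks of the list that the authors call optimal, made by the irreproducible discovery rate (IDR) procedure. A peak was kept when its summit was more than 5 kb from the 5′ end of every gene of any type in GENCODE M21 and when the window from 100 bp before to 100 bp after the summit had at least 55% G plus C and an observed to expected CpG ratio of at least 0.6. That ratio divides the number of CpG found by the number that the C and G content of the window would give at random. The 622 peaks were 1.43% of the 43380 optimal peaks on chromosomes 1 to 19, and 2.13% of the 29147 whose summits passed the distance rule, which are called distal below. CTCF had been immunoprecipitated with its bound DNA and sequenced (ChIP-seq) from hearts of the strain B6NCrl on postnatal day 0, giving 2 libraries of 1 group. Both libraries carry the same tissue sample and donor identifiers in the labels, so their spread may be only technical, and with 1 group no test over samples was possible. The strength of a peak is given as the signal value deposited by the authors, which ranks peaks within a list and has no read depth behind it in these files. Values called pooled come from the optimal list, and values of replicate 1 and replicate 2 come from each library's own list of 300000 relaxed peaks, at the summit within 100 bp. The tissue was used whole, so binding in few cells and weak binding in many cells cannot be told apart. No expression was measured, and the tissue label was not checked against marker genes.

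CTCF is a zinc finger protein that halts the cohesin complex as it extrudes chromatin loops, and that insulates enhancers from promoters. It reads a long motif whose central part, the 14-base CTCF core, holds positions where the C of a CpG can be methylated, and methylation there is known to block binding at some sites, as at the imprinted H19 locus. CpG is depleted over most of the mouse genome, where it is usually methylated, and is kept at CpG islands, most of which lie at gene starts and stay unmethylated. CpG islands away from annotated gene starts, called orphan islands, are known to hold alternative or unannotated promoters in many cases. DNA methylation was not measured here.

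The windows of 7 strong members are shown first, with the CpG over the window that the rule asked for and a core that often holds CpG itself. Each is a window of the mm10 reference, 5′ to 3′ on the strand of the core, with the 14 bases of the best core match within 50 bp of the summit in capitals. A site is named after the gene it lies in, or else after the protein-coding gene with the nearest 5′ end.
Glrx3 site, chr7:137478337-137478537, plus strand: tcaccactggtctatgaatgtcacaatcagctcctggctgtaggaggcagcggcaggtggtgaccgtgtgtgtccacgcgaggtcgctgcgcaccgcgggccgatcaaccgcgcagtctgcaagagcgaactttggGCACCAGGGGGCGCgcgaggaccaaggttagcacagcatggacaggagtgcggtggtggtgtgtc
Trpv4 site, chr5:114667635-114667835, minus strand: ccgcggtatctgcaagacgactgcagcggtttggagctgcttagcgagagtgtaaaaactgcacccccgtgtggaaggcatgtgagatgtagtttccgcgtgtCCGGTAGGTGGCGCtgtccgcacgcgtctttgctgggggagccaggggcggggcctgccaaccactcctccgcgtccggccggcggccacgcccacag
Zfp239 site, chr6:117879483-117879683, plus strand: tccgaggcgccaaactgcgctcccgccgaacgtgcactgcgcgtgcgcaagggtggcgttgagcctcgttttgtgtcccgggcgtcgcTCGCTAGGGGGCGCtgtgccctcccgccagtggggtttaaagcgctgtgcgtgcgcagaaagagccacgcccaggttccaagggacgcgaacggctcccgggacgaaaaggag
Epm2aip1 site, chr9:111289952-111290152, minus strand: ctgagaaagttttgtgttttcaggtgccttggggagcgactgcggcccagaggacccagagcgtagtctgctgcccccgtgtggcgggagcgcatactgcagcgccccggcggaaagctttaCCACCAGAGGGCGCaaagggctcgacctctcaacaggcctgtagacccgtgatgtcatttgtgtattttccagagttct
Meis2 site, chr2:115855875-115856075, plus strand: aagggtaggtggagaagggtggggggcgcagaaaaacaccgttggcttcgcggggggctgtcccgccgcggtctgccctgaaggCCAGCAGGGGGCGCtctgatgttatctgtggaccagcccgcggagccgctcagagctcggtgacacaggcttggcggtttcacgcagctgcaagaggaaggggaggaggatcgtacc
Mef2c site, chr13:83715078-83715278, plus strand: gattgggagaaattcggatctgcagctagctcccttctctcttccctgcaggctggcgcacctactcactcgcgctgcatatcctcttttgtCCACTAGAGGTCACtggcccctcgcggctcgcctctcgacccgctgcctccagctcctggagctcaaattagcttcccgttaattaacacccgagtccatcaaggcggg
Dlk1 site, chr12:109437805-109438005, plus strand: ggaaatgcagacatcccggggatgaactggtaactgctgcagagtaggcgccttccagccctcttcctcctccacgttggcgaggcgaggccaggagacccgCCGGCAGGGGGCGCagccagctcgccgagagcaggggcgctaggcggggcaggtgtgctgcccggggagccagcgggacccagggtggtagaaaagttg

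Members without a good core, or beside the start of a transcript, are shown by 3 further windows. The Bicdl1 site lies 222 bp from the 5′ end of a transcript that begins inside the gene. The Cln6 site was strong although its best match within 50 bp of the summit, in capitals, had 4 mismatches to the core consensus. Its window did hold 1 core with at most 2 mismatches farther from the summit, and the site was chosen after its value was seen. The Snx20 site was among the weakest and lies in coding sequence.
Bicdl1 site, chr5:115653108-115653308, plus strand: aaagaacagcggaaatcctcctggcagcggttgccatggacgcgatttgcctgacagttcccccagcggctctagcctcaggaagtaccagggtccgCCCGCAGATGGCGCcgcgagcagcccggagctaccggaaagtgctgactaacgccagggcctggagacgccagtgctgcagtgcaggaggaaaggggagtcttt
Cln6 site, chr9:62828764-62828964, plus strand: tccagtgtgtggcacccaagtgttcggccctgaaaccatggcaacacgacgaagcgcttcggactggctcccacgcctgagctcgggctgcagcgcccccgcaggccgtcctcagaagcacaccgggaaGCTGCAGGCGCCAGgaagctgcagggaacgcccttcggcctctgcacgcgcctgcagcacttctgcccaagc
Snx20 site, chr8:88627287-88627487, plus strand: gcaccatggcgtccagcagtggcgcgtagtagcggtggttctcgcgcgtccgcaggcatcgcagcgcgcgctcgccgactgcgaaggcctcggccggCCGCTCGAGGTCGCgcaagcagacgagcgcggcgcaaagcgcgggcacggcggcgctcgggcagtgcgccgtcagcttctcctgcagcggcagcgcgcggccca

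A strong distal peak that passed the G plus C limit but had no CpG is given for comparison, from an intergenic place nearest to Wnt7b. Its core matched with 0 mismatches and its pooled signal was 329. The window held 0 CpG at 56.2% G plus C, below the members' median of 64.7%.
Wnt7b site, chr15:85610645-85610845, plus strand: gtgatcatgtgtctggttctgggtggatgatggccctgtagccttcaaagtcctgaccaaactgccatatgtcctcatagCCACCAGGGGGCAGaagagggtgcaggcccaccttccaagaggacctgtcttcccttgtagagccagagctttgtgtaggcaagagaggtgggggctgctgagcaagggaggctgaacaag

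The strongest member was intergenic, 40.8 kb from the 5′ end of Glrx3, a glutaredoxin gene of iron-sulfur metabolism. Its pooled signal was 425, with 220 in replicate 1 and 207 in replicate 2. The window held 16 CpG and a core with 1 mismatch. The site nearest to Trpv4, a gene for a calcium-permeable cation channel, came next at 396, with 200.7 and 198 in the libraries. Its core, CCGGTAGGTGGCGC, held CpG at both places discussed below. The third, at 341 (182 and 158), lay 18.1 kb from the 5′ end of Epm2aip1 and had a core with 0 mismatches. Of these 3 sites, each was higher in replicate 1.

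The other members among the 12 strongest had pooled signals from 277 to 317. The site 5.62 kb from the 5′ end of Ppp1r1b, the gene of the phosphatase inhibitor DARPP-32, had 317. Its library values were 158 in replicate 1 and 160 in replicate 2. A site 17.5 kb from the 5′ end of Zfp239, a zinc finger gene, had 304 (162 and 140) in a window with 26 CpG. RefSeq placed the start of the gene model Gm38882 only 50 bp from this site. An intron of Mrps27, which encodes a mitochondrial ribosomal protein, held a site with 298 (154 and 145), and an intron of the gene model Gm44511, near the natural killer cell receptor gene Klrb1c, one with 297 (156 and 141). The site nearest to Sync, the gene of the muscle intermediate filament protein syncoilin, reached 296 (163 and 133) with a best match of 3 mismatches. Sites nearest to the homeobox gene Barx2 (295, with 161 and 133) and to Cep170b (293, with 153 and 139) followed. The site near Cmtm6 had 279 and was higher in replicate 2 (154) than in replicate 1 (125). The twelfth, with 277 (147 and 131), lay in coding sequence of A830031A19Rik. The 12 strongest sites were spread over 8 chromosomes, and 9 of them were intergenic.

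All 622 members had pooled signals between 6.43 and 425, with a median of 89.5 and quartiles of 30.7 and 161. The median over the other 28525 distal peaks was 63.1, over the 4351 of these with at least 55% G plus C it was 66.2, and over all autosomal optimal peaks it was 61.4. The 3219 peaks that met the same sequence rule but lay within 5 kb of a gene 5′ end had a median of 42.6. On the log2 scale the members' median was 0.50 above that of all other distal peaks. The library values were 0.47 in replicate 1 and 0.57 in replicate 2 (mean 0.52 ± 0.08, SD, n = 2 libraries), so the difference was larger than the spread between libraries. Against the distal peaks with at least 55% G plus C it was 0.43 (0.43 ± 0.03, SD, n = 2), and against the CpG-rich peaks near gene starts it was 1.07 (1.02 ± 0.0044, SD, n = 2).

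The size of that difference depended on how much sequence was read and on what was compared. With a window of 200 bp to either side of the summit in place of 100 bp the rule kept 456 peaks, and their median was 0.060 above the other distal peaks on the log2 scale, whereas with 50 bp to either side it was 0.96 above. A stricter limit of 60% G plus C gave 0.17, and a CpG ratio of at least 0.75 gave 0.13. Repeats moved with it as well: 3398 of the other distal peaks, but 2 of the members, had windows at least 50% masked as repeats, and without such windows the difference was 0.31. The masked peaks of the other distal group had a median signal of 29.9.

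Both ends of the scale were filled. Among the members, 111 (17.8%) fell in the strongest 10% of autosomal optimal peaks, and 68 (10.9%) in the weakest 10%. In the other distal peaks those shares were 9.84% and 9.24%, and in those with at least 55% G plus C 15.7% and 10.5%, closer to the members. The weakest members were a site in an intron of Kat6b, a histone acetyltransferase gene, with 6.43, one near the kinase gene Jak1 with 7.45, and one in an exon of Sesn1 with 8.37. The Kat6b and Sesn1 sites were found in replicate 1 only, with 4.15 and 7.06, while the Jak1 site had 3.42 in replicate 1 and 4.25 in replicate 2.

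Both libraries listed 591 of the 622 members (95.02%, exact binomial 95% interval 93.0 to 96.6, which covers counting error only), beside a background of 97% over autosomal optimal peaks. Of the rest, 15 were missing from replicate 1, 17 from replicate 2, with 1 missing from both. The stricter list that the authors call conservative held 557 members (89.6%), against 89.3% of autosomal optimal peaks. The first share was just below its background and the second was at it. Across the 591 members the ranks of the 2 libraries had a Spearman correlation of 0.97, against 0.95 over other distal peaks. That is a description over peaks that share their libraries. Replicate 2 was the higher library at 161 of the 591. The median absolute log2 ratio between libraries was 0.26 for members and 0.31 for other distal peaks. Among the stronger members, the site in an intron of Fbxo34 differed most, with 118 in replicate 1 and 71.2 in replicate 2, followed by sites in Sptbn5 (61.0 and 36.9) and near Wnt2b (81.8 and 50.2).

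**Figure D1:**
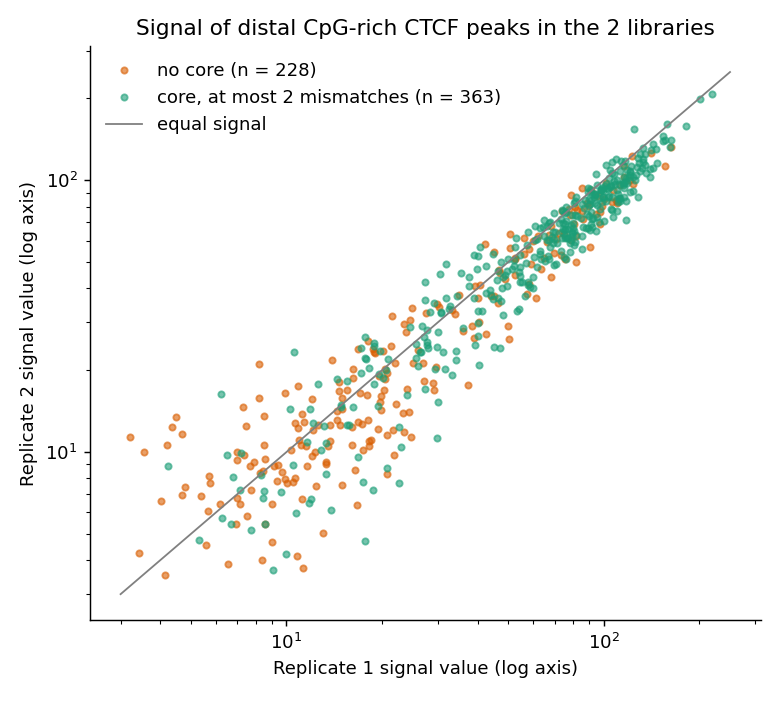
Signal value of each member in replicate 1 (x axis) and replicate 2 (y axis), both on log axes, for the 591 members listed in both libraries; each point is 1 member, colour gives presence of a core with at most 2 mismatches, and the line marks equal signal. The points follow the line, with replicate 2 higher at 161 of them, and members without a core crowd the weak end.

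A core with at most 2 mismatches, on either strand and within 50 bp of the summit, was found at 370 members (59.5%, exact binomial 95% interval 55.5 to 63.4). The background was 77.4% of all other distal peaks and 73.4% of autosomal optimal peaks. The share was 71.9% in distal peaks with at least 55% G plus C and 45.4% in CpG-rich peaks near gene starts, so the members stood between these groups. Members with 0 mismatches numbered 49 (7.88%, against 13% of other distal peaks). With 3 mismatches allowed the shares were 88.1% and 92.9%. The consensus takes A at core base 3. When A or G was accepted there, an alternative added after the data were seen, the share rose to 72.2% of members and 79.7% of other distal peaks. Anywhere in the window, 48 members (7.72%) held more than 1 core, against 4.66% of other distal peaks but 8.78% of those with at least 55% G plus C. Of the 252 members without a core within 50 bp, 25 had one elsewhere in the window.

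The letters of the core differed from those of other distal peaks, at the places where CpG can form and at others. Among members with a core, 269 of 370 (72.7%) read CG at core bases 12 and 13, against 25.5% of other distal peaks with a core, 33.9% of those with at least 55% G plus C and 72.4% of CpG-rich peaks near gene starts. A second CpG, at core bases 2 and 3, was present in 110 of the 370 (29.7%), against 2.64%, 6.33% and 32.2% in the same groups. The rule counts CpG in the window and so favours both, but it did not rest on the core alone, since 554 members (89.1%) met both sequence limits with the 14 bases of the best match left out. Over best matches with at most 3 mismatches, core base 3 was G in 33.2% of 548 members and in 5.02% of 26513 other distal peaks, and core base 13 was G in 77.6% and 41.7%. Outside these CpG, core base 8 was A in 27.6% and 49.1%, and in 34.4% of distal peaks with at least 55% G plus C. Core base 5 was C in 54.9%, 37.2% and 56.6% of the same groups.

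Single core sequences also differed in their CpG, which the rule favours because its CpG count takes in the core. The most frequent, CCGCCAGGGGGCGC with 2 CpG, was found in 10 of the 370 members with a core. Of the 22066 other distal peaks with a core, 17 had it. CCGGCAGGGGGCGC, also with 2 CpG, was found in 8 members, the Dlk1 site shown above among them, and in 5 other distal peaks. By contrast CCAGCAGAGGGCGC, with 1 CpG, was in 7 members and 133 other distal peaks, and CCACCAGGGGGCAG, with 0 CpG, in 3 members and 161.

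The core went with a stronger signal. Members with a core had a median of 131 (69.3 in replicate 1, 61.0 in replicate 2), and the 252 without had 34.2 (19.9 and 16.9). Other distal peaks had 78.6 with a core and 31.5 without. On the log2 scale the members with a core were therefore 0.74 above other distal peaks with a core (0.73 ± 0.05, SD, n = 2 libraries). Those without a core were 0.12 above their counterparts (0.19 ± 0.01, SD, n = 2). Library medians leave out peaks that the library did not list. Without a core, both libraries listed 90.5% of members and 94.1% of other distal peaks, and at 3 mismatches 91.0% and 96.3%. By number of mismatches, the members' medians were 172 at 0 mismatches, 140 at 1, 87.1 at 2, 35.5 at 3 and 29.9 at 4 or more. Those of other distal peaks were 138, 86.2, 51.5, 36.2 and 22.7. The difference on the log2 scale was 0.32, 0.70 and 0.76 at 0, 1 and 2 mismatches. At 3 mismatches it was -0.03 in pooled values but above 0 in each library (0.09 and 0.12), so its direction did not hold across the value used. Against distal peaks with at least 55% G plus C, the differences at 0, 1 and 2 mismatches were smaller, 0.11, 0.44 and 0.67. Against CpG-rich peaks near gene starts they were 0.03, 0.22 and 0.56. For all peaks with a core, the differences from these 2 groups were 0.46 and 0.61. Equal counts of mismatches need not mean equal matches, since G at core base 3 counts as a mismatch. It stood there in 33.2% of members and 5.02% of other distal peaks, over best matches with at most 3 mismatches. The share was 10.2% with at least 55% G plus C and 35.9% in CpG-rich peaks near gene starts. Signal differences with G accepted there were not run.

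**Figure D2:**
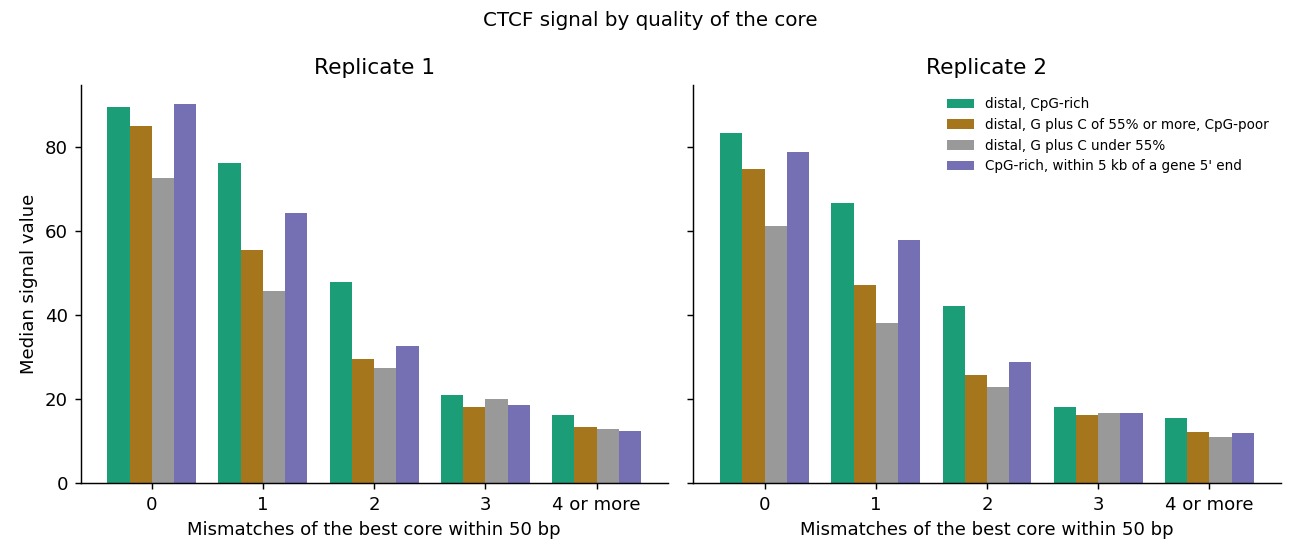
Median signal value in replicate 1 (left) and replicate 2 (right) against the number of mismatches of the best core within 50 bp of the summit, for members (distal, CpG-rich) and 3 other classes of autosomal peaks; bars are medians over peaks and carry no error, and start at 0. At 1 and 2 mismatches the members' bars are the tallest in both libraries, and at 3 or more all classes are low. G at core base 3, more frequent in members than in other distal peaks, counts as a mismatch.

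Within the core, a CpG did not go with a stronger signal in members in the way it did elsewhere. Members with CG at core bases 12 and 13 had a median of 121 (66.1 and 57.8 in the libraries) and those without it 149 (79.2 and 69.9). In all other distal peaks with a core the order was the opposite, 98.3 with that CpG and 72.6 without, and in CpG-rich peaks near gene starts it was 95.1 and 63.4. A transcript 5′ end lay within 1 kb of 30.1% of the members with this CpG and of 19.8% of those without it. Whether that share has a part in the order was not tested. For the CpG at core bases 2 and 3, members had 136 with it and 129 without, and other distal peaks had 123 and 77.4. Among members with exactly 1 mismatch, the medians were 136 with CG at bases 12 and 13 (n = 106) and 173 without (n = 41), in the same order as over all mismatches.

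Although every member was over 5 kb from the 5′ end of each gene record, 205 (32.96%, exact binomial 95% interval 29.3 to 36.8) had the 5′ end of an annotated transcript within 1 kb, a start inside a longer gene. The background was 4.44% of all other distal peaks, and 9.38% of distal peaks with at least 55% G plus C. RefSeq placed a gene start within 1 kb of 126 members (20.3%), against 1.63% of other distal peaks. The strongest was in an intron: the site in Zfp638 lay 78 bp from a transcript 5′ end and had a signal of 271 (141 in replicate 1 and 130 in replicate 2). The site in Ubtf, the gene of a factor of ribosomal RNA transcription, lay 346 bp away with 260 (135 and 125). Coding exons of Rinl (48 bp away) and of Pear1 (725 bp away), the latter a platelet receptor gene, held sites with 241 (132 and 111) and 231 (121 and 108), and the Bicdl1 site shown above had 227 (126 and 100.5).

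Those 5 are the strong end of a weak class. Members with a transcript 5′ end within 1 kb had a median of 44.1 (24.7 and 23.9 in the libraries), and the 417 without one had 116 (61.6 and 53.4). RefSeq gave a gene start within 1 kb of 22 of the 417, the Zfp239 site among them, and the median over the other 395 was 118. In other distal peaks the medians were nearly equal, 61.6 with such a start and 63.2 without. A core was present in 49.3% of the members with a start and in 64.5% of those without. Split by both, the 269 members with a core and no start had 144, those with a core and a start 85.4, the 148 with neither 43.4, and the 104 with a start and no core 29.8. The corresponding medians of other distal peaks with at least 55% G plus C were 95.5, 88.1, 30.8 and 27.5. Without the peaks near transcript 5′ ends, the members stood 0.88 above other distal peaks on the log2 scale (0.85 ± 0.03, SD, n = 2 libraries).

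**Figure D3:**
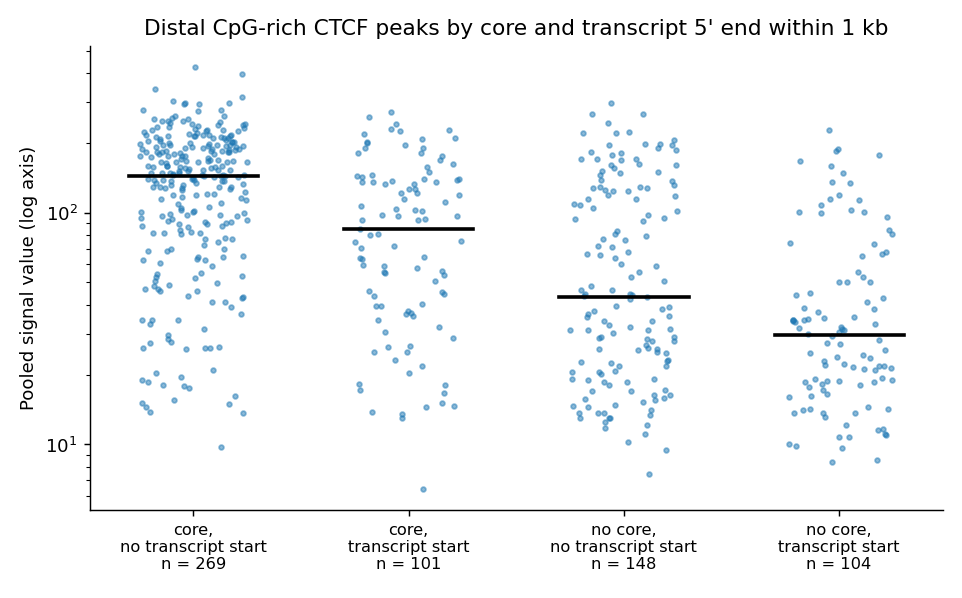
Pooled signal value of each of the 622 members on a log axis, by presence of a core with at most 2 mismatches and of a transcript 5′ end within 1 kb; points are members, spread sideways at random, and bars are medians. The medians step down from 144 through 85.4 and 43.4 to 29.8, while each class reaches values above 200.

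Signal rose with CpG up to the limit of the rule and did not go on rising among the members. In distal peaks with at least 55% G plus C, the median signal was 52.8 at CpG ratios under 0.1 and higher in each class up to 104 at 0.5 to 0.6, with 1 step the other way in replicate 2. Members had 100 at 0.6 to 0.7 (n = 233), 97.7 at 0.7 to 0.8 (n = 166), 65.5 at 0.8 to 0.9 (n = 118), 50.6 at 0.9 to 1.0 (n = 53) and 79.5 at 1.0 or more (n = 52). Over the same classes the share with a transcript 5′ end within 1 kb rose from 25.3% to 48.1%, and the share with a core went from 65.2% to 51.9%, with its lowest value, 41.5%, at 0.9 to 1.0. G plus C content moved with them, and the members with 55% to 60% had a median signal of 137 and those with 70% or more 44.1. These measures overlap, and which of them goes with signal by itself was not tested.

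**Figure D4:**
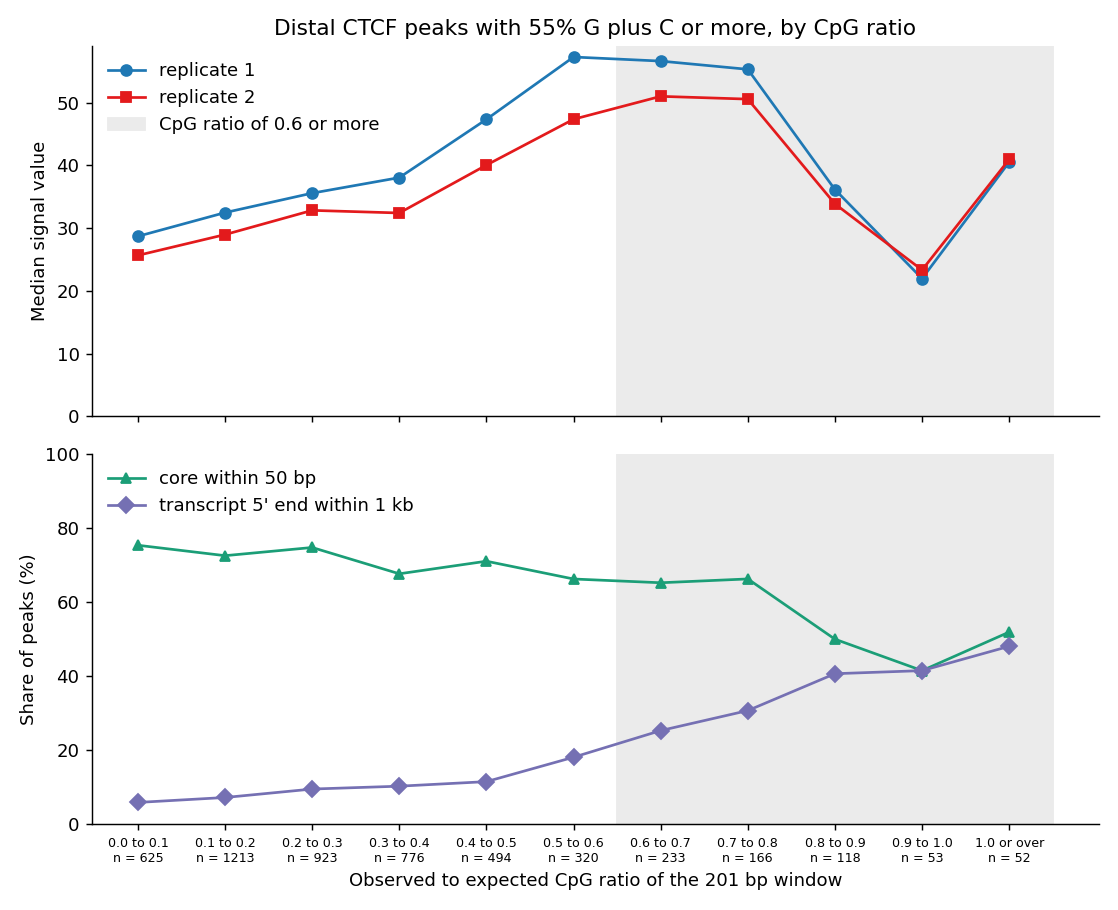
Distal peaks with at least 55% G plus C, by observed to expected CpG ratio of the window around the summit (x axis, with the number of peaks); the upper panel gives the median signal value in each library and the lower panel the percent of peaks with a core and with a transcript 5′ end within 1 kb. The shaded classes are the 622 members; signal peaks around a ratio of 0.6 in both libraries and is lowest within the shading at 0.9 to 1.0, while the share with a transcript 5′ end grows from left to right.

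The windows were mostly parts of longer CpG-rich stretches. The median stretch in which every window met the sequence limits measured 415 bp, against 679 bp for CpG-rich peaks near gene starts. It was at least 500 bp at 243 members (39.1%) and at least 1000 bp at 46. Signal was highest at stretches of 300 to 500 bp (median 132, n = 212), and lower at 500 to 1000 bp (45.8, n = 197) and at 1000 bp or more (47.0). The longest lay in coding sequence of Tchh, a hair follicle structural protein gene (2483 bp, signal 25.1, with 10.8 in replicate 1 and 12.2 in replicate 2), AI464131 (2051 bp, signal 33.2) and Nkpd1 (1933 bp, signal 74.7). The highest CpG ratios, 1.31 in Tacc1 and in Snx20, belonged to weak sites with 23.7 and 12.5, and the next, 1.25 in an intron of the germ cell gene Tdrd7, to one with 134 (68.1 and 68.0).

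By place, 236 members (37.9%) were intergenic, 215 (34.6%) in introns, 104 (16.7%) in coding exons and 67 (10.8%) in other exons. Coding exons held 2.02% of other distal peaks, 6.44% of those with at least 55% G plus C, and 12.4% of CpG-rich peaks near gene starts. Median signal was 146 in intergenic members, 69.6 in introns, 47.0 in coding exons and 43.9 in other exons. In other distal peaks the intergenic median was 71.9 and that in coding exons 48.5, so the coding exon members were near their counterparts while the intergenic ones were higher. Transcript 5′ ends move with place, lying within 1 kb of 57.2% of intron members and 35.6% of coding exon members but of 0 intergenic ones. In other exons, the strongest were in C87436 (275, with 143 and 136), Ubtf and 4930578M01Rik (248, with 128 and 120). Within 1 kb of a gene 3′ end lay 42 members (6.75%, against 3.44% of other distal peaks).

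Members were found on every autosome, from 19 on chromosome 10 to 60 on chromosome 2. As a share of distal peaks they ranged from 1.33% on chromosome 10 to 2.97% on chromosome 7. The nearest other optimal peak was a median of 5.97 kb away, against 10.7 kb for other distal peaks, and 25 members had another member within 1 kb. Counted from the genome, 24836 fixed tiles of the length of a window met the sequence and distance limits, and 582 of them (2.34%) held an optimal summit. The share was 1.26% in distal tiles with at least 55% G plus C and less CpG, 0.257% in other distal tiles, and 5.84% in CpG-rich tiles near gene starts. Most distal CpG-rich sequence was thus without a peak in this list.

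Motifs of other factors known at CpG islands were searched in the windows on both strands, as exact words. GGGCGG, bound by SP and KLF factors, was in 42.1% of members, 4.50% of other distal peaks, 11.97% of those with at least 55% G plus C and 55.9% of CpG-rich peaks near gene starts. CCGGAAG, read by ETS factors, was in 35 members (5.63%, against 1.11% of other distal peaks). CACGTG, the E-box, was in 5.79% against 2.89% of other distal peaks. GCGCATGCG of NRF1 was in 7 members, TGACGTCA of CREB in 6 and AAGATGGCG of YY1 in 4, or 1.13%, 0.96% and 0.64%, against 0.067%, 0.11% and 0.46% of other distal peaks. AGATAA, a word for the cardiac GATA factors, was in 3.54% of members and 8.12% of other distal peaks. It was in 3.86% of those with at least 55% G plus C, near the members' share, and in 1.77% of CpG-rich peaks near gene starts. Words with CpG follow from the rule, and GGGCGG can overlap a core.

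Genes of fixed lists were counted when a member lay in them or within 50 kb. Over all protein-coding autosomal genes 7.15% had one. Of 30 cardiac transcription factor genes 8 did (26.7%), with 9 members whose median signal was 149. The site 48.1 kb from Mef2c, whose product acts in heart muscle and neural crest development, had 202 (105 in replicate 1 and 95.6 in replicate 2). The site 7.09 kb from Meis2 had 185 (91.2 and 90.6) and a core with 0 mismatches. Distances to genes of these lists, here and below, are from the nearer end of the gene. The 5′ ends of Mef2c and Meis2 were 211 kb and 210 kb from these sites. The other cardiac list members, named after their values were seen, lay near the T-box genes Tbx3 (180) and Tbx2 (173 and 121 at a pair of sites), Prdm16 (149), Gata5 (139) and Heyl (100), and inside Gata4 (115). The count was not tested.

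Of 82 homeobox and patterning genes 12 had a member (14.6%), with a lower median signal of 70.7. The strongest, 45.2 kb from Hoxa13 and nearest to Evx1, had 117 (63.5 and 51.5), and the next, 39.6 kb from Hoxb1, 114 (57.2 and 57.8). Sarcomere and conduction genes counted 7 of 39 (17.9%), with a median of 44.0. These included the Ppp1r1b site, 41.0 kb from the titin-cap gene Tcap, and a site 11.8 kb from the myosin light chain gene Myl3 with 140 (67.0 and 69.9). For readers of CpG and partners of CTCF the count was 5 of 25 (20%), with 7 members whose median signal was 99.8. The strongest was the site nearest to Tcf3, 46.8 kb from the methyl-CpG-binding domain gene Mbd3, with 247 (135 and 114). The second, 14.02 kb from the DNA methyltransferase gene Dnmt3a, had 241 (135 and 107). The weakest of this list were in and near Cxxc5 (27.6 and 19.1) and near Cxxc1 (13.7).

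Imprinted genes, some of which are known to bind CTCF only on the unmethylated allele, were not frequent: 4 of 58 (6.90%) had a member, near the background, through 3 sites. The site 14.9 kb from Dlk1, a paternally expressed ligand gene, had 186 (99.7 and 86.6) and the core with 2 CpG shown above. The site between 33.9 kb and 42.7 kb from Blcap and Nnat had 182 (105 and 78.3) and a core with 0 mismatches. The third, in an exon of Grb10, had 103 and a best match with 3 mismatches. Nervous system channel and adhesion genes counted 2 of 33, Cacna1a and Nrxn2. The site nearest to Cacna1a had 192 (99 and 93.6), and another, in a coding exon inside Cacna1a, had 45.7. A site 42.3 kb from Nrxn2, in a coding exon of Sf1, had 102 (58.3 and 41.4). None of 57 clustered protocadherin genes and none of 36 collagen and matrix genes had a member within that distance. Clustered genes share their surroundings and are not separate counts, and the rule left out any peak within 5 kb of their 5′ ends.

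Peaks next to the limits covered a wide range of signal on both sides. Just inside 55% G plus C, 20 members shared the value of 55.2%, with signals from 31.2 to 297 and a median of 123. Just outside, 15 peaks shared 54.7%, with signals from 15.3 to 207 and a median of 37.8. Just inside the CpG limit were sites of Itpkb (31.2) and Cux1 (83.0), at ratios that round to 0.60, and just outside those of Paqr5 (222) and Wee1 (239), with ratios that also round to 0.60. Just inside the distance limit were sites of Mecom at 5003 bp (34.1) and Pgbd5 at 5016 bp (14.2), and just outside those of Bcl6 at 4988 bp (56.8) and A930004D18Rik at 4968 bp (196).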

How the data were processed

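ChIP-seq peak lists of CTCF in newborn mouse heart were used: relaxed lists of replicates 1 and 2, and the IDR optimal and conservative lists made by the authors from both libraries. The signal values are those the authors deposited, in narrowPeak files on mm10 per the labels, and were not rescaled. Neither aligner nor caller is given in the sources used here, and the control alignment was not used here. Read depth is unknown, so weak peaks carry an unstated counting error.

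Summits were the peak start plus the deposited offset. Windows of 100 bp to either side came from GRCm38 (mm10), and genes from GENCODE M21, with RefSeq starts beside them. CpG ratio was the number of CpG times window length over the product of C and G. The 14-base CTCF core consensus was searched on both strands within 50 bp of the summit, with at most 2 mismatches. The search was tested on simulated windows in which A, C, G and T were equally frequent. Of 2000 planted cores 100% were found, and 1.4% of random windows held a core. The members' windows are richer in G and C, as is the consensus, so that rate does not carry over to them.

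Peaks are not replicates, so groups of peaks were described by counts and medians, with no test, and the value in each library beside them. Exact binomial intervals at 95% cover counting error only. Members, gene lists and comparisons were chosen with earlier results of these data known. Sites named are the 12 strongest, the 3 strongest by place, the 5 strongest near a transcript 5′ end, the 2 strongest for each gene list, the 3 extremes of CpG ratio, stretch, weakness and library ratio, and the 2 on each side of each limit (for G plus C, where peaks tie, all that tie). Further names came from values already seen. Alternatives covered the list, the limits, the window, the core search and each library left out. Sequences of some chromosomes are not shown. Python 3.11.15, numpy 2.4.6, pandas 2.3.3, scipy 1.17.1 and matplotlib 3.10.9 were used.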

Additional observations from a re-analysis of the deposited data

How the results depend on the processing

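Every alternative run kept the direction of the signal difference and of the core share difference. Sizes moved: of 95 alternative values 72 moved by more than the SD of the values with either library left out, the counting interval or 1.5 times in a count, and 23 did not. That SD rests on 2 values. For the signal difference it was 0.022, below the SD of 0.08 between libraries at the same summits, and 4 of its 15 moved values lay within the latter. The signal difference with 200 bp to either side of the summit, 0.060, was itself smaller than that SD of 0.08. The number of members was 380 beyond 10 kb, 358 beyond 5 kb of transcript 5′ ends as well, 942 and 299 at CpG ratios of 0.5 and 0.75, and 1165 with 50 bp to either side of the summit. With 1 library left out it was 610 to 621.

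The difference in median log2 signal from other distal peaks, 0.50, was 0.54 in the conservative list, 0.34 beyond 2 kb, 1.02 away from transcript 5′ ends, 0.60 and 0.17 at 50% and 60% G plus C, 0.55 and 0.13 at CpG ratios of 0.5 and 0.75, and 0.060 and 0.96 with 200 and 50 bp to either side. It was 0.74 for peaks with a core, 0.12 without, 0.31 without windows masked over 50%, 0.88 over 1 kb from transcript 5′ ends, and 0.43 against peaks with at least 55% G plus C, a comparison added after the data were seen. With 1 library left out it was 0.52 to 0.56.

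The share of members with a core, 59.5%, was 66.5% away from transcript 5′ ends, 61.6% and 56.9% at 50% and 60% G plus C, 61.8% and 53.2% at CpG ratios of 0.5 and 0.75, 55.3% and 69.7% with 200 and 50 bp to either side, 31.5% and 88.1% with at most 1 and 3 mismatches, 52.1% and 63.5% within 25 and 100 bp, and 72.2% with A or G at core base 3. With 1 library left out it was 58.6% to 61.3%. The difference from other distal peaks, -17.9 percentage points, was in the same order -11.2, -15.8, -20.4, -15.7, -24.0, -22.1, -7.58, -14.5, -4.84, -18.7, -15.2 and -7.52, and -17.0 in the conservative list, -18.6 beyond 10 kb, and -12.4 against peaks with at least 55% G plus C. With 1 library left out it was -16.6 to -15.9.

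The share of members near a transcript 5′ end, 32.96%, was 32.3% in the conservative list, 34.2% beyond 10 kb, 27.3% and 39.0% at 50% and 60% G plus C, 27.9% and 39.1% at CpG ratios of 0.5 and 0.75, 42.8% and 19.9% with 200 and 50 bp to either side, and 28.8% and 37.0% within 500 and 2000 bp. With 1 library left out it was 32.0% to 32.9%. It was not run away from transcript 5′ ends, which sets it to 0. The share of cores with CG at bases 12 and 13, 72.7%, was 71.9% in the conservative list, 69.1% beyond 10 kb, 69.7% away from transcript 5′ ends, 70.8% and 73.9% at 50% and 60% G plus C, 67.01% and 81.8% at CpG ratios of 0.5 and 0.75, and 71.4% and 69.5% with 200 and 50 bp to either side. With 1 library left out it was 71.4% to 72.5%. Members seen in both libraries, 95.02%, were 91.5% at 50 bp and 98.6% at 200 bp. No paired analysis was possible because the 2 libraries form 1 group.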

Other observations

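A pair of members lay 676 bp apart in Stag1, the gene of a cohesin subunit, and were chosen after their values were seen. The stronger, in an exon, had a pooled signal of 218 and a core with 0 mismatches. The other, in an intron, had 99.8 and a best match with 4 mismatches.

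Strong members without a core within 50 bp of the summit were also looked for after the values were seen. Beside the Cln6 site (245), whose gene is linked to neuronal ceroid lipofuscinosis, sites at Ssx2ip (207), Rps6ka1 (190) and Snx10 (177) had best matches with 4 mismatches in that range. The windows of Cln6 and Snx10 each held 1 core with at most 2 mismatches farther out, and those of Ssx2ip and Rps6ka1 held 0. What brings signal to these sites was not tested.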
